A study of Rattus norvegicus with 10 samples.

Results

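The receptors for estrogens, progesterone and corticosteroids were examined in the arcuate nucleus (ARC) of Wistar rat dams collected at parturition. The set was chosen by gene symbol and named 6 genes: *Esr1*, *Esr2*, *Pgr*, *Nr3c1*, *Nr3c2* and *Gper1*. Of these, 4 had a row among the 12828 genes of the deposited comparison, namely *Esr1* (ENSRNOG00000019358), *Pgr* (ENSRNOG00000006831), *Nr3c2* (ENSRNOG00000034007) and *Gper1* (ENSRNOG00000001287), all protein-coding. *Esr2* and *Nr3c1* were not analysed here. RNA was sequenced from 10 dams, all mothers in their first pregnancy on the same purified base diet. Through pregnancy 5 of them received folic acid at 5X the recommended level (5X-FA) and the other 5 received an equimolar 5X level of [6S]-5-methyltetrahydrofolic acid (5X-MTHF), the reduced form of folate. The ARC was cut free by hand from a frozen coronal slice, so the piece taken could differ between dams. The comparison asks which genes differed between the high doses of the folate forms, and no dam on the recommended dose was sequenced.

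Steroid hormones act largely through nuclear receptors, proteins that bind the hormone inside the cell and then regulate genes in the nucleus. *Esr1* encodes estrogen receptor alpha, *Pgr* the progesterone receptor and *Nr3c2* the mineralocorticoid receptor, which binds aldosterone and, with high affinity, corticosterone. *Gper1* encodes a G protein-coupled receptor of the cell membrane that responds to estradiol. In the mediobasal hypothalamus neurons with estrogen receptor alpha take part in reproductive feedback, energy balance and maternal physiology, and estradiol is a classical inducer of the progesterone receptor there. Around parturition circulating progesterone falls while estradiol rises.

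Each gene is described by its log2 fold change, where a value below 0 means less RNA in 5X-MTHF than in 5X-FA dams. It is also described by its average log2 CPM, a level over all libraries scaled to library size but not to gene length. Levels and percentiles of different genes therefore also depend on gene length and are only a rough guide. Errors are approximate standard errors (SE) and approximate 95% intervals derived from the fold change and its F statistic. The *p*-values are those of the deposited quasi-likelihood F test, two-sided in effect, and the adjusted ones use Benjamini-Hochberg over all 12828 genes. The values per dam could not be matched to sample labels, so neither the spread between dams nor an overlap of the groups is shown, and the depth of each library is not known from the values used here. The median gene had an SE of 0.11, so a log2 change of about 0.24 was needed for an unadjusted *p*-value of 0.05 at that precision.

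*Esr1* showed the largest difference of the 4 receptors, with less RNA in 5X-MTHF dams, but the difference did not pass the adjusted threshold. Its log2 fold change was -1.28 with an SE of 0.24, so that the fitted level in 5X-MTHF dams was 0.412 times that in 5X-FA dams, with an approximate interval from 0.287 to 0.594. The unadjusted *p*-value was 0.00026, rank 19 of all genes, and the adjusted *p*-value was 0.17 (quasi-likelihood F test, Benjamini-Hochberg). Ordered from the lowest log2 fold change, *Esr1* held rank 17 of the table. The gene covers 401973 bases of chromosome 1 in Rnor_6.0, from 41192824 to 41594796, and its average log2 CPM was 4.49, at percentile 40.3 of all genes.

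*Nr3c2* had a fold change in the other direction, which also did not pass the adjusted threshold. Its log2 fold change was 0.43 with an SE of 0.15, a fitted ratio of 1.34 with an approximate interval from 1.07 to 1.69. The unadjusted *p*-value was 0.017, rank 807, and the adjusted *p*-value was 0.27 (quasi-likelihood F test, Benjamini-Hochberg). The gene lies on chromosome 19 from 34448289 to 34752695, with an average log2 CPM of 4.13.

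*Pgr*, on chromosome 8 from 7128656 to 7187796, had a log2 fold change of -0.13 with an SE of 0.16 and a fitted ratio of 0.915. Its approximate interval, from 0.717 to 1.17, covers ratios on both sides of 1, and the unadjusted *p*-value was 0.44. The intervals of *Esr1* and *Pgr* on the log2 scale, -1.80 to -0.75 and -0.48 to 0.22, do not meet. The difference between these genes was itself not tested, since that needs values per dam. The average log2 CPM of *Pgr* was 3.91.

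*Gper1* was the least precisely measured of the 4, with an average log2 CPM of 1.25. Its log2 fold change was -0.40 with an SE of 0.28, the fitted ratio was 0.759 with an interval from 0.494 to 1.16, and the unadjusted *p*-value was 0.18. At this precision a difference as large as that fitted for *Nr3c2* would not have reached an unadjusted *p*-value of 0.05 in *Gper1*. The gene spans only 1279 bases of chromosome 12, from 17309834 to 17311112, and lies inside the span of *LOC498154*. The libraries were strand-specific, but the strand setting of the counting is not given in the sources used here, so the *Gper1* value is uncertain.

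The receptors thus did not share a direction: 3 log2 fold changes were below 0 and 1 was above it. At an adjusted *p*-value under 0.05, 0 of the 4 were called by the F test, against 0.0078% of all genes (1 gene). At an adjusted *p*-value under 0.25, *Esr1* was called, against 3.17% of all genes. At an unadjusted *p*-value under 0.05 there were 2, against 14.6% of all genes. One of them, *Nr3c2*, was higher in 5X-MTHF dams (background 8.4%) and the other, *Esr1*, was lower (background 6.22%). With 4 genes these shares describe the set and do not set it apart.

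**Figure D1:**
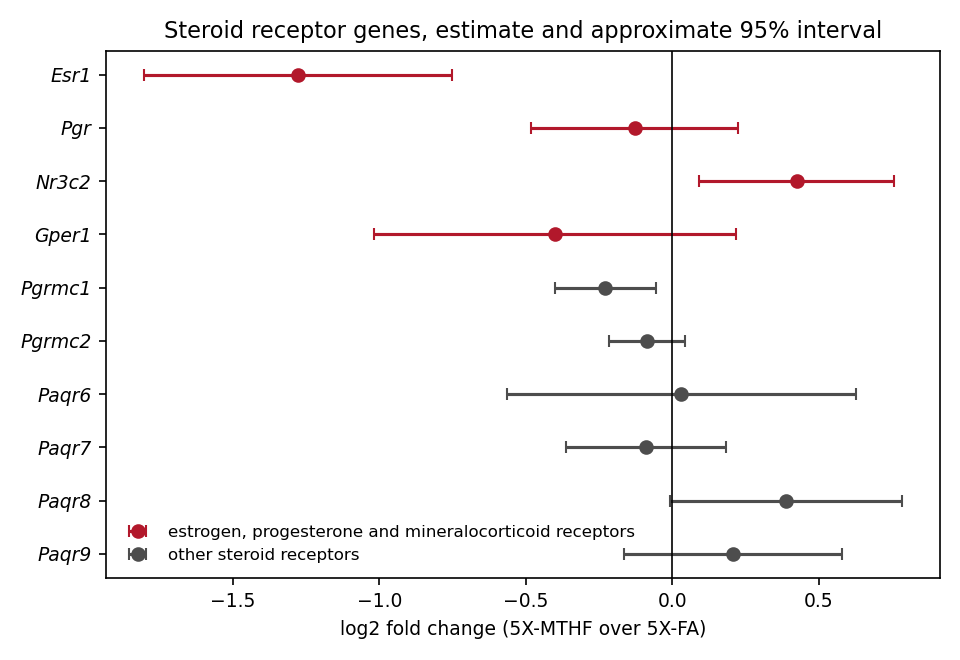
Log2 fold change (5X-MTHF over 5X-FA dams, horizontal axis) of 10 steroid receptor genes, with points for the estimate and bars for the approximate 95% interval; red marks *Esr1*, *Pgr*, *Nr3c2* and *Gper1*. *Esr1* lies at -1.28, the interval of *Nr3c2* lies above 0, and those of *Pgr* and *Gper1* include 0.

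**Figure D2:**
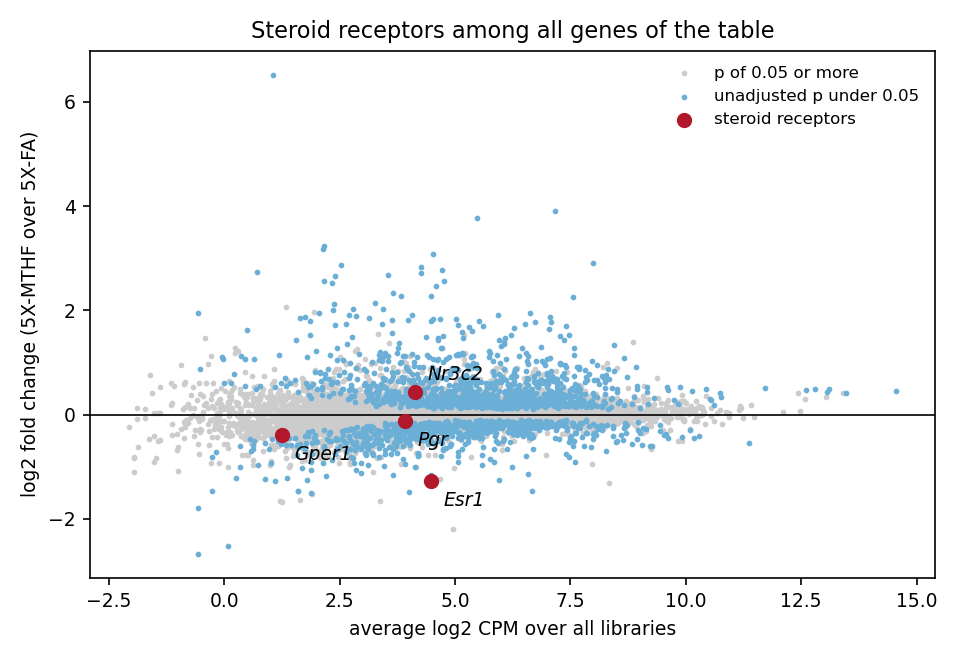
Log2 fold change (vertical axis) against average log2 CPM over all libraries (horizontal axis) for the 12828 genes; blue points have an unadjusted *p*-value under 0.05 and red points are the 4 receptors. *Esr1* sits low in the cloud at -1.28, whereas *Pgr*, at an average log2 CPM of 3.91, sits near 0.

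Genes close to *Esr1* had smaller differences than *Esr1* itself. Within 500 kb of *Esr1* the table holds 6 other genes, and 0 of them had an unadjusted *p*-value under 0.05, with log2 fold changes between -0.30 and 0.13. Among the 5 neighbours of *Nr3c2* it was 0 as well, but their values ran more widely, from -0.33 to 0.70, with a lowest unadjusted *p*-value of 0.094. Around *Gper1*, 3 of 14 neighbours had an unadjusted *p*-value under 0.05, and around *Pgr* 1 of 3 had, with values between -0.25 and 0.32 and between -0.22 and 0.30. Of all genes 14.6% passed that threshold, and with so few neighbours these counts do not set any of the regions apart.

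Promoters are shown for *Esr1* and *Pgr*, the receptor with the largest difference and the receptor known as an estrogen target. Each run is the 250 bases before a RefSeq transcription start in GRCr8, a later build than that of the expression table, 5′ to 3′ on the plus strand. Capitals mark matches to a GC box (GGGCGG) or a CCAAT box (CCAAT), on either strand.

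*Esr1*, chr1:43641845-43642094: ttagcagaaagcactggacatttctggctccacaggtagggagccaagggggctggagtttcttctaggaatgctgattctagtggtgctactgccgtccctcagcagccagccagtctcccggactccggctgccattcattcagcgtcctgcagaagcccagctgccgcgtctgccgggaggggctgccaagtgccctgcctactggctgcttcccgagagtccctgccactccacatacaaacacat
*Pgr*, chr8:14354148-14354397: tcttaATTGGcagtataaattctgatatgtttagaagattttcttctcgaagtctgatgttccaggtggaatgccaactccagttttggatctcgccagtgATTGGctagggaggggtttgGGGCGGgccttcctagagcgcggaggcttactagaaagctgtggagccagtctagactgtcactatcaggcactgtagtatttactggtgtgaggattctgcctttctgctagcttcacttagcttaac

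The *Esr1* window is richer in G and C (59.6%) than the *Pgr* window (46.8%), and the median of 33469 rat promoters is 51.2%. The windows hold 8 and 5 CpG dinucleotides, respectively, against a median of 5. The *Pgr* window has 1 GC box, 129 to 124 bases before the start, and 2 CCAAT boxes, 245 to 241 and 149 to 145 bases before it. GC boxes are found in 30.5% and CCAAT boxes in 34.0% of all promoters of this length. Neither window holds the full consensus estrogen response element, the letters GGTCA from 1 of its arms, or the letters AGAACA from 1 arm of the glucocorticoid response element, on either strand. They occur in 0.0090%, 35.4% and 17.5% of all promoters, and every full estrogen element also holds GGTCA. A missing match says only that these letters are not in this window.

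Other membrane receptors for steroids were taken from a fixed list for comparison. Of 7 membrane receptors found among 8, *Gper1* included, 1 had an unadjusted *p*-value under 0.05, a share of 14.3% against 14.6% of all genes. It was *Pgrmc1*, which encodes a heme-binding membrane protein linked to progesterone responses, at -0.23 with an SE of 0.078. The log2 fold changes of all 7 lay between -0.40 and 0.39, with a median of -0.09, and the highest value was that of the membrane progestin receptor gene *Paqr8*, named after its value was seen, with an unadjusted *p*-value of 0.053. The median of all genes was 0.01. None of these other receptors passed an adjusted *p*-value of 0.05.

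Genes that respond to estrogens or mark neurons with estrogen receptor alpha in the medial hypothalamus had fold changes mostly on the same side as *Esr1*. The list joins responding genes, whatever the direction of their response, with neuron markers. The side of its fold changes is therefore not a measure of estrogen action. Of 29 such genes 26 were found, 17 with a log2 fold change below 0 and 9 above it, with a median of -0.18. At an unadjusted *p*-value under 0.05, 8 lay below 0 and 0 above it, against 6.22% and 8.4% of all genes, and 0 passed an adjusted *p*-value of 0.05 (quasi-likelihood F test). The smallest *p*-values belonged to *Prlr* (the prolactin receptor), at -1.18 with an SE of 0.25, and *Kiss1* (kisspeptin, a neuropeptide that drives gonadotropin-releasing hormone neurons), at -2.52 with an SE of 0.67. *Prlr* had an average log2 CPM of 2.21, at percentile 8.21 of all genes. *Kiss1* was near the floor of the table, at 0.085 and percentile 1.07. Next came *Galr1*, a galanin receptor, at -0.52 with an SE of 0.16, and *Calcr*, the calcitonin receptor, at -1.46 with an SE of 0.45. *Pgr* is in this list too, as are the tachykinin gene *Tac3*, at 0.02, and the neuropeptide Y receptor gene *Npy1r*, at -0.0012, which were chosen after their values were seen. *Penk*, the member with the most reads, had a log2 fold change of 0.57 and an unadjusted *p*-value of 0.15. *Prlr* and *Kiss1* were known from earlier results when the list was written. Without them, 6 of 24 genes were lower and 0 higher at an unadjusted *p*-value under 0.05, and the median was -0.13.

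Genes that glucocorticoids induce, which bear on the corticosteroid receptors, had fold changes mostly on the other side. Of 32 listed, 29 were found, and 26 of them had a log2 fold change above 0, with a median of 0.28, whereas 51.7% of all genes were above 0. At an unadjusted *p*-value under 0.05, 8 lay above 0 and 1 below it, against 8.4% and 6.22% of all genes, and 0 passed an adjusted *p*-value of 0.05 (quasi-likelihood F test). *Rhob*, a small GTPase gene, had a log2 fold change of 0.35 with an SE of 0.060 and an unadjusted *p*-value of 0.00015. *Klf9*, a transcription factor gene, stood at 0.63 with an SE of 0.17, and *Dusp1*, a phosphatase that switches off MAP kinases, at 0.46 with an SE of 0.12. The gene below 0 was *Nedd9*, an adhesion docking protein gene, at -0.19 with an SE of 0.061. *Glul* (glutamine synthetase), the member with the most reads, stood at 0.34. The textbook targets *Sgk1*, *Per1* and *Tsc22d3*, chosen after their values were seen, stood at 0.57, 0.29 and 0.11, with unadjusted *p*-values of 0.074, 0.16 and 0.25. *Rhob* had been seen in the study's own gene table before the list was written. Without it 25 of 28 genes were above 0, with a median of 0.27. Several members, such as *Dusp1* and *Per1*, are also induced by neuronal activity, so the list is not a measure of glucocorticoid action alone.

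Among enzymes that make or convert steroids the smallest *p*-value was that of *Hsd11b1*. It encodes the enzyme that regenerates active corticosterone from its inactive 11-keto form within the cell. Its log2 fold change was 0.999 with an SE of 0.18, a fitted ratio of 1.998 with an approximate interval from 1.52 to 2.64. The unadjusted *p*-value of *Hsd11b1* was 0.00021 and the adjusted one was 0.17 (quasi-likelihood F test). *Hsd17b7*, which acts in estradiol formation and cholesterol synthesis, stood at 0.31 with an SE of 0.12. These were the 2 with an unadjusted *p*-value under 0.05 among 16 genes found of 27 listed, of which 12 were above 0, with a median of 0.09. That is 12.5% of the list, no more than the 14.6% of all genes. *Hsd17b12*, the member with the most reads, stood at -0.05.

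The proteins that receptors work with had list medians near 0, and the share of genes at an unadjusted *p*-value under 0.05 was 6.67% for chaperones and 4.76% for coregulators, against 14.6% of all genes. Chaperones such as HSP90 hold steroid receptors ready to bind hormone. Of 16 chaperone and partner genes 15 were found, with a median of 0.02, and all except *Fkbp5* lay between -0.12 and 0.08. *Fkbp5*, a co-chaperone that lowers glucocorticoid receptor affinity and is itself induced by glucocorticoids, stood at 0.49 with an SE of 0.19 and an unadjusted *p*-value of 0.027. *Hsp90ab1*, the member with the most reads, stood at 0.05. Coregulators, which link bound receptors to transcription, had a median of 0.01 over 21 genes found of 25, 13 of them above 0 and 8 below it, with a range from -0.28 to 0.27. The acetyltransferase gene *Crebbp*, at -0.16 with an SE of 0.051, was the 1 with an unadjusted *p*-value under 0.05, and the RNA helicase gene *Ddx5*, with the most reads, stood at 0.00.

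Among 28 other nuclear receptor genes found of 41, 21 were above 0 with a median of 0.12, and 5 were higher and 2 lower at an unadjusted *p*-value under 0.05. These 7 make up 25.0% of the list, against 14.6% of all genes, of which 51.7% were above 0. *Esrra*, an orphan receptor related in sequence to *Esr1* but not bound by estradiol, stood at 0.23 with an SE of 0.064. *Nr5a1* (steroidogenic factor 1), which marks the ventromedial hypothalamus, stood at -1.51 with an SE of 0.48. *Nr2c1* stood at -0.20 and *Nr2e1*, a receptor of neural stem cells, at 0.51. *Thra*, the thyroid hormone receptor alpha gene and the member with the most reads, stood at 0.22 with an unadjusted *p*-value of 0.072.

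**Figure D3:**
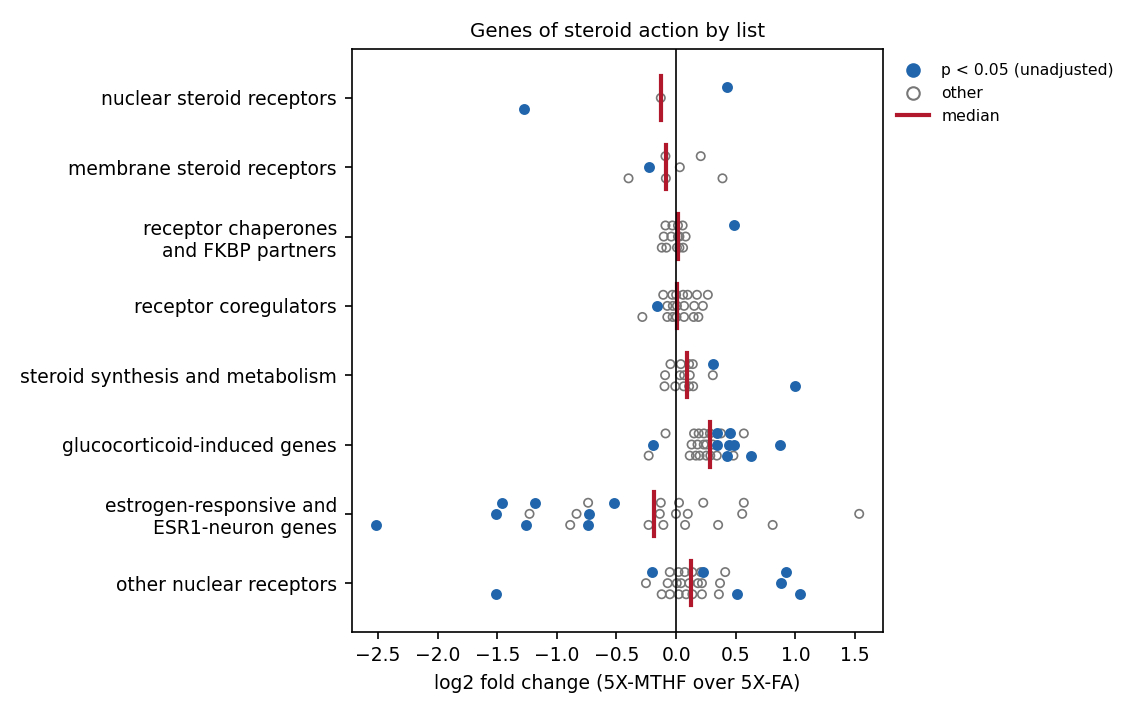
Log2 fold change (5X-MTHF over 5X-FA dams, horizontal axis) of each gene in 8 lists of steroid action; filled blue points have an unadjusted *p*-value under 0.05, open points do not, and red lines are medians. The filled points of the estrogen-responsive list all lie below 0, and 8 of the 9 filled points of the glucocorticoid-induced list lie above 0.

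Markers of brain regions had medians away from 0, those of the hypothalamus on the same side as *Esr1*. Of 14 ARC markers found among 18, 12 were below 0, with a median of -0.71, and all 14 markers found of the 16 for the ventromedial and neighbouring hypothalamus were below 0, with a median of -0.65. Among these, *Fezf1*, a transcription factor gene of the ventromedial nucleus, stood at -1.49. By contrast, 13 of 14 striatal markers and 12 of 13 markers of cerebral cortex and hippocampus were above 0, with medians of 1.08 and 1.52. Of all genes 51.7% were above 0. At an unadjusted *p*-value under 0.05, 4 ARC markers were lower and 1 was higher, and 5 of the ventromedial list were lower. At that threshold 9 striatal and 10 cortical markers were higher. Of all genes 6.22% were lower and 8.4% were higher at it. The lower ARC markers include *Prlr* and *Kiss1*, which were known from earlier results. These genes and *Nr5a1* of the ventromedial list are also in the estrogen-responsive list, so the lists are not separate observations. The higher gene of the ARC list was *Slc6a3*, the dopamine transporter gene, at 3.78 with an SE of 1.54, and was named after its value was seen. Dopamine neurons also lie outside the ARC, and the source of this RNA was not tested. In bulk tissue fewer neurons with *Esr1* and less *Esr1* RNA per neuron cannot be told apart. The part of these regional differences in the values of *Esr1*, *Nr3c2* and *Hsd11b1* was not tested. Nor was their part in the lists of steroid action, including the glucocorticoid-induced and estrogen-responsive genes.

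The remaining lists had medians closer to 0. Those of thalamus had a median of 0.40 over 12 genes, tanycytes and ependyma -0.51 over 8, pituitary and meninges -0.37 over 10, microglia 0.27 over 8 and endothelium 0.20 over 6. Within the pituitary and meningeal list the pituitary hormone genes *Cga*, *Tshb* and *Pomc* stood at -2.19, -1.66 and -1.23, with SEs of 1.259, 1.187 and 0.691. In that list 0 genes had an unadjusted *p*-value under 0.05, against 14.6% of all genes. The meningeal genes *Col1a1*, *Col3a1* and *Dcn* stood at -0.10, -0.04 and 0.05. *Tshb*, *Col1a1*, *Col3a1* and *Dcn* were named after their values were seen. Pituitary cells also make *Esr1*, and the part of pituitary tissue in its value was not tested. Those of oligodendrocytes, astrocytes and neurons in general had medians of 0.10 over 9 genes, 0.03 over 8 and -0.04 over 10. The tissue held the ARC genes *Pomc*, *Agrp* and *Cartpt*, with average log2 CPM of 4.67, 1.42 and 6.02. *Agrp*, which among these marks the ARC most narrowly, was at percentile 4.12 of all genes. *Pomc* is also made in the pituitary, and genes of other areas were in the tissue too, such as *Pmch* of the lateral hypothalamus at 9.24, *Oxt* of the paraventricular and supraoptic nuclei at 8.33 and *Slc17a7* of the cortex at 7.17, named after their values were seen.

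**Figure D4:**
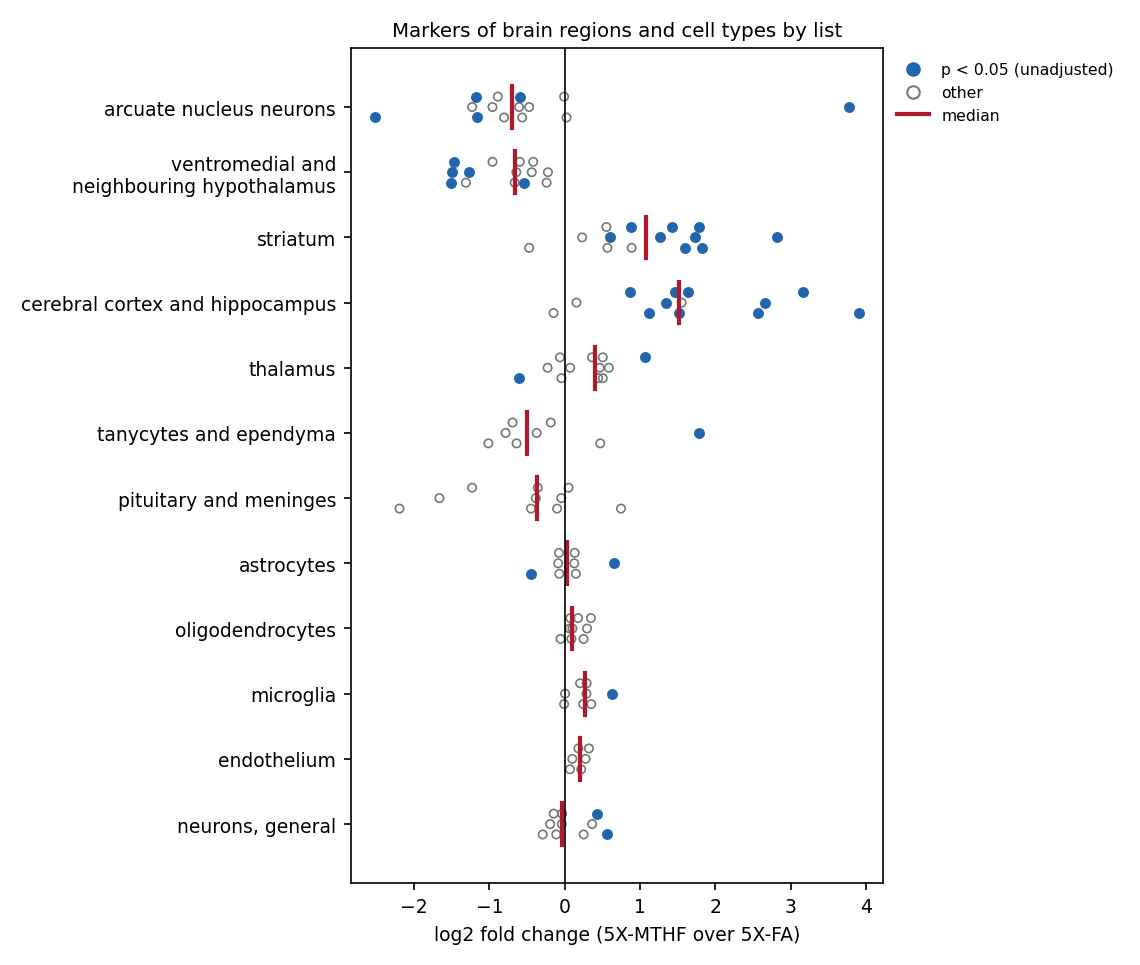
Log2 fold change (5X-MTHF over 5X-FA dams, horizontal axis) of each marker gene in 12 lists of brain regions and cell types, drawn with filled points for an unadjusted *p*-value under 0.05 and red lines for medians. Medians lie at -0.71 and -0.65 for the hypothalamic lists and at 1.08 and 1.52 for striatum and for cerebral cortex and hippocampus.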

How the data were processed

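RNA of the ARC from 5 dams per diet was sequenced as poly-A libraries. Per the study's methods, reads were trimmed (Trim Galore 0.5.0), aligned to Rnor_6.0 with STAR 2.6.0c and counted on Ensembl genes with HTSeq 0.6.1p2. The deposited table of the authors lists log2 fold changes, average levels as log2 CPM, F statistics (a score without a fixed range) and p-values with false discovery rates. These are columns of the authors' own comparison, whose layout is a quasi-likelihood F test, a test the methods do not name. Another 10 columns of values per sample matched no label and were not used, so planned tests on values per dam were replaced by the deposited statistics, and the depth of each library is not known from the values used.

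A positive fold change was read as higher in 5X-MTHF dams, since 2008 of 2008 genes shared with the study's gene table had the same sign. P-values were adjusted anew by Benjamini-Hochberg across the 12828 genes. The SE was taken as the absolute log2 fold change over the root of F, and intervals use the t distribution with the degrees of freedom implied by F and p (median 10.6). Both are approximations. Calculations were tested on simulated data. The result of 1 listed gene is not reported here. The p-values set each diet difference against an error estimated from the libraries of these dams only.

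The genes and lists were chosen with earlier results of these data known. Named genes are the members, up to 4 genes per list with the smallest unadjusted p-value under 0.05 and the one with the most reads. From marker lists up to 2 genes were taken, and others are marked. Promoters are from RefSeq (GRCr8), where *Esr1* and *Pgr* matched. *Nr3c2* and *Gper1* had no entry. Computation used scipy 1.17.1 and numpy 2.4.6 in Python 3.11.15.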

Additional observations from a re-analysis of the deposited data

How the results depend on the processing

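Adjusting only over genes whose average log2 CPM reached 1, or only over protein-coding genes, changed no call of the 4 receptors or of the 8 lists. With a minimum of 4, which leaves out *Pgr* and *Gper1*, 2 genes of the whole table were called in place of 1, and none of them was a receptor or in a list of steroid action. When p-values came from a normal in place of an F distribution, which ignores that the error was itself estimated from few dams, 566 genes were called, *Esr1* had an adjusted p of 5.0e-05, and *Nr3c2*, *Pgr* and *Gper1* stayed above 0.05. The lists then held 1 call each for nuclear steroid receptors, coregulators and steroid enzymes, 2 for other nuclear receptors, 4 for glucocorticoid-induced and 6 for estrogen-responsive genes. At an unadjusted p under 0.05, 1875 genes were called, with *Esr1* at 0.00026 and *Nr3c2* at 0.017. The lists then held 2 nuclear and 1 membrane steroid receptors, 1 chaperone or partner, 1 coregulator, 2 steroid enzymes, 9 glucocorticoid-induced, 8 estrogen-responsive and 7 other nuclear receptor genes. No direction changed under these settings, since all use the same fold changes.

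No paired analysis was possible because the columns per dam carry no label that ties them to a diet and a replicate number. For lack of that label exact permutation tests, fits that leave out a dam, and other pseudocounts, filters and scalings were not run. Nor were levels per length and the genes most like *Esr1* or *Nr3c1*. Without the genes shared with marker lists, a split chosen after seeing the data, 5 of 18 estrogen-responsive genes were lower and 0 higher at an unadjusted p under 0.05. The genes left were also listed for the medial hypothalamus, so this split does not separate them from the regional marker differences.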
